A study of Mus musculus with 6 samples.

Results

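The 10 genes described here encode the MCM helicase and the factors that license DNA for replication, namely Mcm2, Mcm3, Mcm4, Mcm5, Mcm6, Mcm7, Mcm10, Cdc6, Cdt1 and Gmnn. They were taken by name from the 31053 genes of the count table, and all 10 were found. The list was drawn up because Mcm4 and Mcm5 had been seen to fall in cD2KO cells, so that the values of these genes in that comparison describe them and are not evidence. Quiescent muscle stem cells (qMuSCs), which lie on resting muscle fibers, were sorted by the study for GFP driven by Pax7 from hindlimb muscles of mice aged 3 to 4 months, and RNA was sequenced with a library for each mouse. The 3 control mice (c124, c129 and c130, called WT by the study) were Pax7nGFP/+;Pax7+/+;Dio2Fl/Fl, and the 3 cD2KO mice (fl125, fl126 and fl128) were Pax7nGFP/+;Pax7-CreERT2/+;Dio2Fl/Fl. Dio2 encodes the type 2 deiodinase D2, the enzyme that makes active thyroid hormone inside the cell. All 6 mice carried the floxed Dio2 alleles and the GFP reporter and received tamoxifen, which activates the CreERT2 recombinase in cells that express Pax7. The controls had no Cre, so that loss of D2 and the presence of an active Cre cannot be told apart, and the counts do not show in which share of the cells Dio2 was recombined.

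Licensing is the step that allows a stretch of DNA to be copied once in a cell cycle. The origin recognition complex, Cdc6 and Cdt1 load rings made of Mcm2 to Mcm7 onto DNA before S phase, geminin (the product of Gmnn) binds Cdt1 and blocks further loading once S phase has begun, and Mcm10 takes part in turning the loaded rings into running helicases. The MCM genes are known targets of E2F transcription factors, and their RNA is low in resting cells and rises when cells leave quiescence, which is why they are used as a readout of whether a muscle stem cell is preparing to divide.

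Because the 6 subunits of the ring are known as E2F targets, the promoter windows of RefSeq (GRCm38.p6, from 250 bases before to 50 after each start site) were searched for the words TTTCCCGC, TTTCGCGC, TTTGCCGC and TTTGGCGC on both strands, which spell the E2F consensus. The words can overlap one another where a site can be read on both strands. The table held 8 of the 10 genes, without Mcm4 and Gmnn. Of these 8 genes 6 had a word, Mcm3, Mcm5, Mcm6, Mcm7, Cdc6 and Cdt1, whereas 704 of the 27025 genes in the table did, or 2.6%. Mcm2 and Mcm10 had none in their windows. Examples are printed to let the words be seen in their surroundings, with the letters that match in capitals and each run written 5′ to 3′ in the direction of its gene. The first 2 are sites where words from both strands overlap.
Mcm5: gccaagaacTTTCGCGCCAAAacgtccagc
Mcm6: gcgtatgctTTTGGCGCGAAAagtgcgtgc
Mcm7: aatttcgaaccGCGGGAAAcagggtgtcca
Cdc6: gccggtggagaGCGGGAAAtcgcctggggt
These runs lie at chr8:75109347-75109376 (plus strand), chr1:128359795-128359824 (minus strand), chr5:138172030-138172059 (minus strand) and chr11:98908002-98908031 (plus strand). The capitals begin at -153, -110, -165 and -138 relative to the RefSeq start site of each window. In each of these genes this start differs from the end of the annotated gene. In Mcm7 and Cdc6 the runs lie within the gene spans given below. A match is a run of letters and not a shown binding site.

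Dio2 itself was at 21, 5 and 10 counts in c124, c129 and c130 and at 15, 5 and 1 counts in fl125, fl126 and fl128. Levels are given as CPM (counts scaled to a library of 1e6, with library sizes adjusted by the TMM factors of edgeR). At 6.79 CPM, Dio2 was highest of all in the library labelled fl125, so that its label was not borne out by this gene. Results are given with and without fl125 where it decides them. In fl126 Dio2 was at 1.71 CPM, close to the 1.85 CPM of c129, and its lowest level was 0.314 CPM in fl128. Dio2 counts therefore did not clearly separate the groups. Total counts ran from 2184073 to 3897787 per mouse, and 3 counts equalled between 0.768 and 1.36 CPM. Xist had at most 1 count and Ddx3y between 258 and 418 counts in each mouse, so that the groups did not differ in sex. Pax7, the transcription factor used for the sort, was at 350 ± 121 CPM in control and 485 ± 189 CPM in cD2KO mice (SD, n = 3 mice each). All numbers of counts are subject to counting error, to which only the intervals named counting intervals below refer. The intervals of fold changes come from edgeR and also take in differences between mice. Reads on Mcm2 to Mcm7 made up 0.0151% of all counts.

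Mcm4 and Mcm5 were 2.30-fold and 1.81-fold lower in cD2KO than in control qMuSCs (n = 3 mice each), and they are the genes for which the list was made. Mcm6 had a fitted level 1.63-fold lower, Mcm3 and Mcm7 had fitted levels 1.35-fold and 1.34-fold lower, and Mcm2 had a higher mean in cD2KO with large differences between mice. The loading factor Cdt1 and its inhibitor Gmnn were also lower on average, but both overlapped between the groups. By the rule for calls given below, 6.62% of all genes tested were lower, and as Mcm4 and Mcm5 led to the list, nothing is read from their being called.

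**Figure D1:**
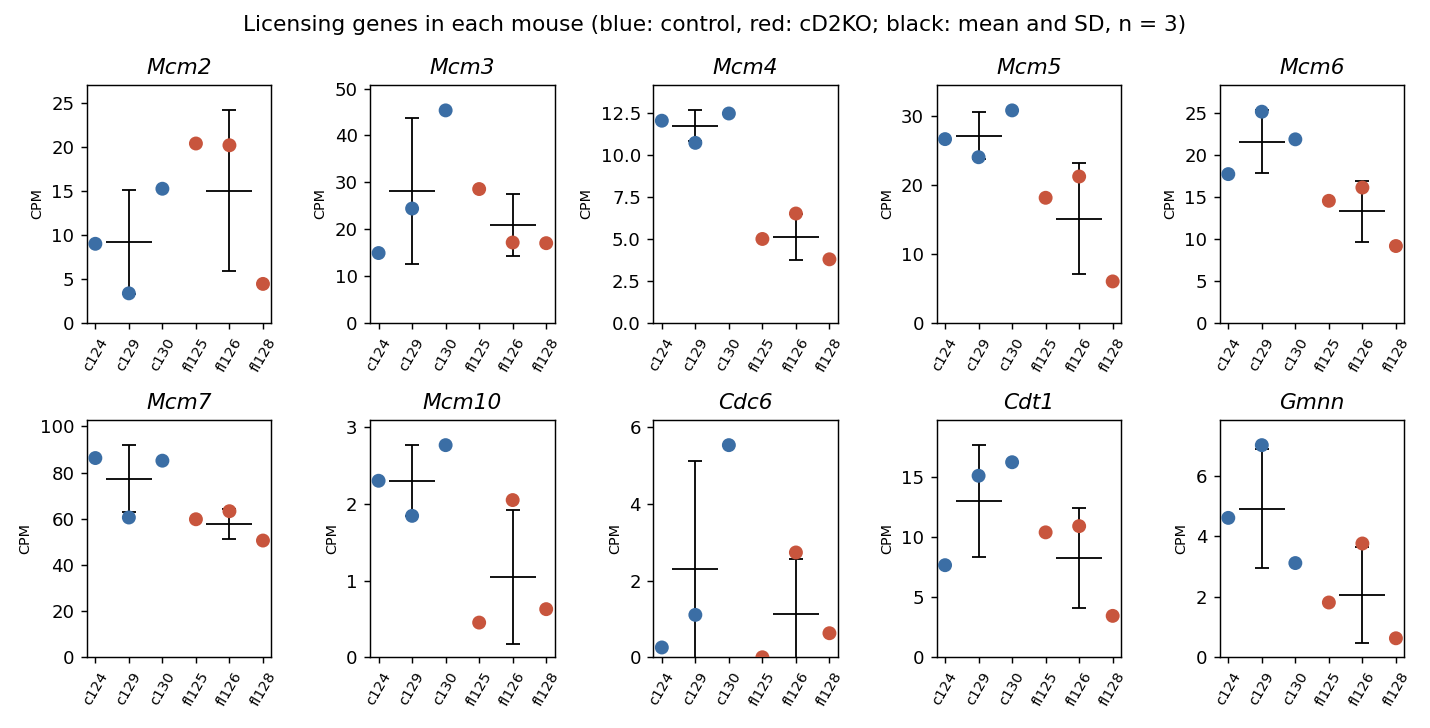
Level of each licensing gene in each mouse, in CPM (y axes, which start at 0 and differ between panels), with control mice in blue, cD2KO mice in red and the mean and SD of 3 mice in black (in Cdc6 the lower SD bars run off the axis at 0). The groups are apart in Mcm4, Mcm5 and Mcm6, where all 3 cD2KO mice are below all 3 control mice, and overlap in the other genes.

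Mcm4 (ENSMUSG00000022673, minus strand of chromosome 16 from 15623897 to 15637400 in GENCODE M21, mm10) encodes a subunit of the ring. Its counts were 47, 29 and 36 in c124, c129 and c130 and 11, 19 and 12 in fl125, fl126 and fl128. This put it at 12.0, 10.7 and 12.5 CPM in the control mice and at 4.98, 6.50 and 3.77 CPM in the cD2KO mice. The control mice were close to each other, and the highest cD2KO mouse was well below the lowest of them. The means were 11.7 ± 0.915 and 5.08 ± 1.37 CPM (SD, n = 3 mice each), and the fitted log2 fold change (log2FC, cD2KO minus control) was -1.20 with a standard error (SE) of 0.45, or 2.30-fold lower. The 95% counting intervals of single mice nevertheless touched, from 3.91 to 10.1 CPM in fl126 and from 7.17 to 15.4 CPM in c129.

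Mcm5 (ENSMUSG00000005410, plus strand of chromosome 8 from 75109569 to 75128439) encodes another subunit, which sits beside Mcm2 at the place where the ring opens. It was at 26.6, 24.0 and 30.8 CPM in c124, c129 and c130 and at 18.1, 21.2 and 5.97 CPM in fl125, fl126 and fl128. All cD2KO mice were below all control mice, but fl125 and fl126 were nearer to the controls than to fl128. The means were 27.1 ± 3.43 and 15.1 ± 8.06 CPM (SD, n = 3 mice each), a log2FC of -0.86 (SE 0.40). Without fl128 the log2FC was -0.46.

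Mcm6 (ENSMUSG00000026355, minus strand of chromosome 1 from 128331590 to 128359664), also a ring subunit, was at 17.7, 25.1 and 21.8 CPM in the control mice and at 14.5, 16.1 and 9.11 CPM in fl125, fl126 and fl128. It separated the groups as Mcm4 and Mcm5 did, with a narrow gap between c124 and fl126. Its log2FC was -0.70 (SE 0.34), with a 95% interval from -1.43 to 0.03. Without fl128 it was -0.49.

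Mcm7 (ENSMUSG00000029730, minus strand of chromosome 5 from 138164583 to 138172422) had the highest level of the list. It was at 86.3, 60.5 and 85.2 CPM in c124, c129 and c130 and at 59.8, 63.3 and 50.6 CPM in fl125, fl126 and fl128, with c129 between the cD2KO mice. Its log2FC was -0.42 (SE 0.22), with a 95% interval from -0.89 to 0.04. A part of its exons is shared with Cops6 and Ap4m1 on the opposite strand and with the microRNA genes Mir25 and Mir93, and as the use of strand in counting is not given in the sources used here, some of its reads may belong to these.

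Mcm3 (ENSMUSG00000041859, minus strand of chromosome 1 from 20802968 to 20820312) was at 14.9, 24.4 and 45.3 CPM in the control mice and at 28.5, 17.1 and 17.0 CPM in fl125, fl126 and fl128. The lowest mouse of all was a control and the highest was another. The log2FC was -0.44 (SE 0.40, 95% interval from -1.29 to 0.41), and it ran from -0.75 without c124 to 0.11 without c130.

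Mcm2 (ENSMUSG00000002870, minus strand of chromosome 6 from 88883474 to 88898780) was the exception in direction. It was at 8.96, 3.32 and 15.2 CPM in c124, c129 and c130 and at 20.4, 20.2 and 4.40 CPM in fl125, fl126 and fl128. The mice fl125 and fl126 had the highest levels of the 6, while fl128 lay between the controls c129 and c124. The log2FC was 0.69 (SE 0.61), with a wide 95% interval from -0.65 to 2.03, and it ran from 0.32 without c129 to 1.26 without c130. It was 1.14 without fl128 and 0.44 without fl125.

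**Figure D2:**
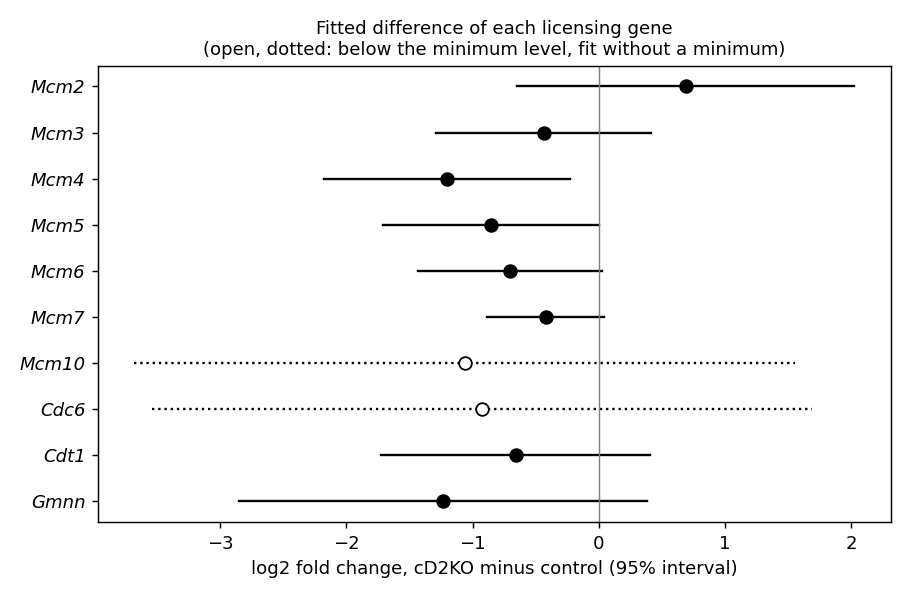
Log2 fold change (log2FC) of each licensing gene (x axis, cD2KO minus control) with its 95% interval from edgeR. Mcm10 and Cdc6, with open points and dotted lines, were below the minimum level and come from a fit without one. The intervals of Mcm4 and Mcm5 end below 0, and those of the other genes include 0.

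Cdt1 (ENSMUSG00000006585, plus strand of chromosome 8 from 122568015 to 122573554), which brings the ring to the origin, was at 7.68, 15.1 and 16.3 CPM in the control mice and at 10.4, 10.9 and 3.45 CPM in fl125, fl126 and fl128. The control c124 was below both fl125 and fl126. Its log2FC was -0.66 (SE 0.50), and -0.27 without fl128. It lies within an intron of a longer gene annotated on the same strand, Gm20388, with which it shares no exon bases.

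Gmnn (ENSMUSG00000006715, minus strand of chromosome 13 from 24751845 to 24761923) had 18, 19 and 9 counts in c124, c129 and c130 and 4, 11 and 2 counts in fl125, fl126 and fl128. This corresponds to 4.61, 7.01 and 3.12 CPM and to 1.81, 3.76 and 0.628 CPM, with fl126 above c130. Its log2FC was -1.23 (SE 0.75, 95% interval from -2.85 to 0.39), and -0.78 without fl128. It was the member closest to the minimum level, with a mean of 10.02 normalized counts where more than 10 were required.

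Mcm10 and Cdc6 did not reach that minimum and are given by their counts. Mcm10 (ENSMUSG00000026669, minus strand of chromosome 2 from 4989714 to 5012791) had 9, 5 and 8 counts in the control mice and 1, 6 and 2 counts in fl125, fl126 and fl128. Cdc6 (ENSMUSG00000017499, plus strand of chromosome 11 from 98907801 to 98923940), the ATPase that works with the origin recognition complex in loading, had 1, 3 and 16 counts in the control mice and 0, 8 and 2 counts in the cD2KO mice. Most of the Cdc6 counts of the controls came from c130, and the 0 of fl125 has a limit of 1.36 CPM when 3 counts are taken as the floor, while its 95% counting interval ends at 1.67 CPM. A difference in either gene was not detectable at this depth.

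A gene was called where its unadjusted p in the quasi-likelihood test of edgeR was under 0.05. Of the 8 members that passed the minimum, 2 were called lower in cD2KO and 0 higher, and both were the genes that led to the list. Of all 11633 genes tested, 6.62% were lower and 5.34% were higher by this rule. After Benjamini-Hochberg adjustment over all genes 0 members were under 0.1 or under 0.05, where 0.774% and 0.0086% of the genes were. By either direction, 12% of all genes were called. All cD2KO mice were below all control mice in 3 of the 8 genes and in 10% of all genes tested, and they were above in 0 of the 8 and in 8.05% of all genes. The fitted change was below 0 in 7 of the 8, and in 51.9% of all genes, and the median log2FC was -0.68 beside -0.02 for all genes. Since the list was chosen from this comparison, nothing is read from these counts. Mcm4 and Mcm5 were both called without fl125 and without fl126. Without c129 the members called lower were Mcm4 and Mcm7, without c124 the number was 1 (Mcm4), and it was 0 without c130 or without fl128, where the median was -0.55 and -0.40.

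The mouse fl128 was the lowest of the 6 in Mcm4, Mcm5, Mcm6, Mcm7, Cdt1 and Gmnn, 6 of the 10 genes, and c130 was the highest in 6, which were Mcm3, Mcm4, Mcm5, Mcm10, Cdc6 and Cdt1. The library fl125 was the lowest in Mcm10 and Cdc6 and the highest in Mcm2. Summed over Mcm2 to Mcm7, the level was 166, 148 and 211 CPM in c124, c129 and c130 and 146, 144 and 90.8 CPM in fl125, fl126 and fl128. The sums of fl125 and fl126 came within a few CPM of c129, whereas fl128 stood apart below. The mean sum was 175 ± 32.3 CPM in control and 127 ± 31.5 CPM in cD2KO mice (SD over 3 mice each). It includes Mcm4 and Mcm5, which led to the list. Without these 2 genes the sum was 136 ± 28.1 CPM in control and 107 ± 22.7 CPM in cD2KO mice. The groups then overlapped, at 113.3 to 167.5 CPM in control and 81.0 to 123.2 CPM in cD2KO mice.

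**Figure D3:**
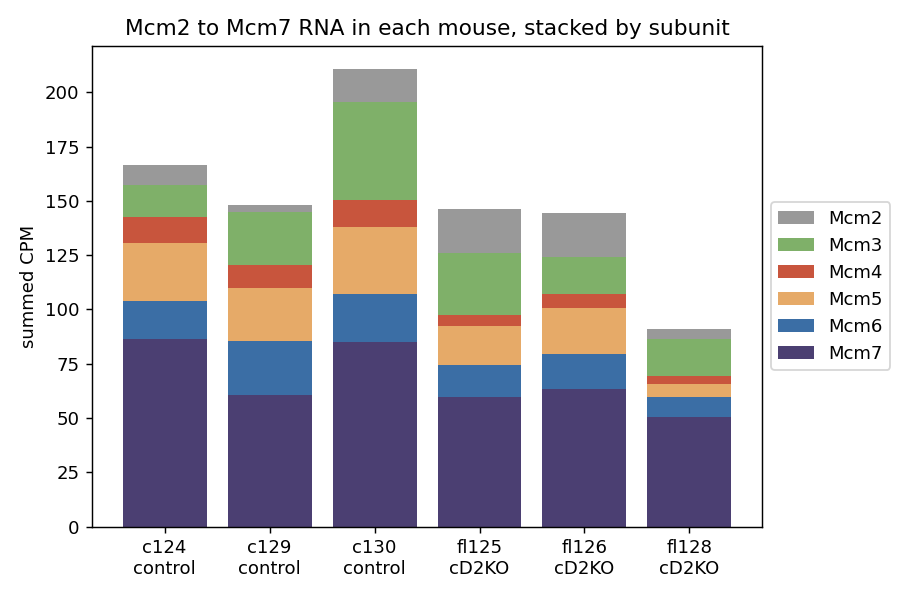
Summed level of Mcm2 to Mcm7 in each mouse, in CPM (y axis), stacked by subunit. The bar of fl128 is the shortest at 90.8 CPM, and the Mcm2 segment at the top is the widest in fl125 and fl126.

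Whether the subunits shifted in proportion to one another was not tested. Among them Mcm2 had the highest log2FC and Mcm4 the lowest. Their intervals, from -0.65 to 2.03 and from -2.18 to -0.23, overlapped. Mcm4 made up 7.23%, 7.23% and 5.91% of the sum in c124, c129 and c130 and 3.41%, 4.50% and 4.15% in fl125, fl126 and fl128, so that its share was smaller in each cD2KO mouse than in each control. Mcm2 made up 5.38%, 2.24% and 7.22% in the controls and 13.9%, 14.0% and 4.84% in the cD2KO mice, with fl128 among the controls. The share of Mcm5 was between 14.6% and 16.2% in the control mice and was 12.4%, 14.7% and 6.57% in fl125, fl126 and fl128. The shares of Mcm3, Mcm6 and Mcm7 overlapped between the groups. As these are shares of a sum, a smaller share of one subunit makes the others larger.

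Per kilobase of annotated exon, the order of the levels in control mice was Mcm7, Mcm3, Mcm5, Mcm6, Cdt1, Gmnn, Mcm4, Mcm2, Cdc6 and Mcm10. Mcm7 was at 17.5 ± 3.29 CPM per kilobase and Mcm10 at 0.300 ± 0.0600 CPM per kilobase (SD, n = 3 mice). Mcm7 was above Mcm3, Mcm5 above Mcm6, Mcm4 above Mcm2 and Mcm2 above Cdc6 by more than the larger SD of each pair. The other neighbours, Mcm3 and Mcm5, Mcm6 and Cdt1, Cdt1 and Gmnn, Gmnn and Mcm4, and Cdc6 and Mcm10, did not differ beyond it. In cD2KO mice Mcm2 was in place 6 and Gmnn in place 8, and the rest kept their places. The library service is described as digital RNA-seq, and whether its reads cover whole transcripts is not given in the sources used here, on which this order depends.

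The genes that act with the members were read from lists made for this purpose. The origin recognition and loading partners held 11 tested genes, among them subunits of the origin recognition complex. Of the 11 genes 0 were called lower and 0 higher, beside 6.62% and 5.34% of all genes, with a median log2FC of 0.27. Mcmbp, which binds MCM subunits outside the ring, had a log2FC of -0.02 (95% interval from -0.54 to 0.50). Kat7, a histone acetyltransferase that acts at origins, had one of 0.51, with an interval from -0.05 to 1.07, and was highest in fl125. The median of this list turned to -0.05 at a minimum mean of 50 normalized counts, and it was 0.12 without fl125 and 0.49 without fl128.

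Of the 13 genes of helicase activation only 6 reached the minimum level, and Cdc45, Cdc7 and Gins1 were among those that did not. Of the 6 tested genes 0 were called in either direction, beside 12% of all genes. Their median log2FC was -0.12, which turned to 0.06 with limma voom and to 0.09 without c130. Topbp1, which helps to assemble the active helicase, had a log2FC of -0.51 (95% interval from -1.33 to 0.31), and Gins4, a subunit of that helicase, one of -0.06. The replisome list held 24 tested genes of DNA polymerases, clamp and clamp loader. Of these 0 were lower and 0 higher (6.62% and 5.34% of all genes), with a median of -0.18. Lig1, the ligase that joins Okazaki fragments, was at 127 ± 29.0 CPM in control and 96.3 ± 38.0 CPM in cD2KO mice (SD over 3 mice each), and like many of the members it was lowest in fl128, at 53.7 CPM. Rfc1, the large subunit of the clamp loader, had a log2FC of -0.05.

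Licensing is also limited by destruction of its factors. Of 15 tested genes in this list 2 were lower and 0 higher, beside 6.62% and 5.34% of all genes. Dtl, which directs the Cul4 ubiquitin ligase to Cdt1, was at 6.66, 16.2 and 10.4 CPM in the control mice and at 3.17, 6.84 and 3.45 CPM in fl125, fl126 and fl128. Its log2FC was -1.28 with an SE of 0.54 (edgeR, adjusted p = 0.375), with fl126 just above c124. Fbxo5, which encodes the inhibitor Emi1 of the anaphase-promoting complex and so keeps geminin from being degraded, was at 6.66, 6.65 and 7.62 CPM in the control mice and at 0.453, 3.76 and 2.51 CPM in fl125, fl126 and fl128. All cD2KO mice were below all controls, with a log2FC of -1.57 and an SE of 0.68 (edgeR, adjusted p = 0.380). Cul4a, Ddb1 and Rbx1, which form the ligase that Dtl serves, had log2FC values of 0.09, -0.06 and 0.00.

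Among the 15 tested genes of the E2F and DREAM list, the regulators of MCM transcription, 0 were lower and 0 higher (6.62% and 5.34% of all genes). Their median log2FC was 0, and -0.27 without c130. Rbbp4, a histone-binding subunit of DREAM, had a log2FC of 0.37 (95% interval from -0.06 to 0.79), and Tfdp2, an E2F partner, one of -0.35 (from -0.89 to 0.20). The 432 tested genes with an E2F word in their promoter window had a median log2FC of -0.01, and 4.86% of them were lower in cD2KO, beside 6.56% of the 8709 tested genes without one. Of the pathway genes, 1 of the 19 with a word and 7 of the 60 without one were lower, beside 6.48% of the 9141 tested genes with a promoter window. The median of the genes without a word was -0.02.

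Of the 6 lists of genes that act with the members, the genes expressed in dividing cells had the median closest to theirs. Of its 24 tested genes 7 were lower and 0 higher, beside 6.62% and 5.34% of all genes, with a median log2FC of -0.55. All cD2KO mice were below all controls in 8 of the 24, and in 10% of all genes. The fitted change was below 0 in 20 of the 24 genes and above 0 in 4, and it ran from -1.3 to 0.56. The genes named below were picked from those called, all of them lower. Mki67, the proliferation marker, was at 16.1, 18.1 and 20.1 CPM in c124, c129 and c130 and at 11.8, 10.6 and 10.1 CPM in fl125, fl126 and fl128. The groups were apart, and fl128 lay close to the other cD2KO mice. Its log2FC was -0.74 with an SE of 0.34 (edgeR, adjusted p = 0.400). Top2a, the topoisomerase that untangles chromosomes, had a log2FC of -0.65, Birc5 (survivin) one of -1.19, Kif23, a kinesin of cytokinesis, one of -0.84 and H2afz, a histone variant, one of -0.61. Ube2c, the ubiquitin-conjugating enzyme of the anaphase-promoting complex, had one of -1.29, but it shares exon bases with Tnnc2 on the opposite strand. After adjustment, edgeR gave these 5 genes p-values from 0.253 to 0.396. The summed level of the list was 421 ± 28.0 CPM in control and 316 ± 17.5 CPM in cD2KO mice (SD over 3 mice each). The study reports the other direction, with cell cycle among the pathways raised in cD2KO qMuSCs. Its pathways were taken from Panther, whose gene sets were not examined here. The study also counted EdU-positive, proliferating cells by FACS. In resting cD2KO muscle their share approached that of WT cells alerted by an injury elsewhere. It further reports activated mTORC1 signaling and larger cells. These are measures of cells and proteins, unlike the RNA levels of the list used here.

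**Figure D4:**
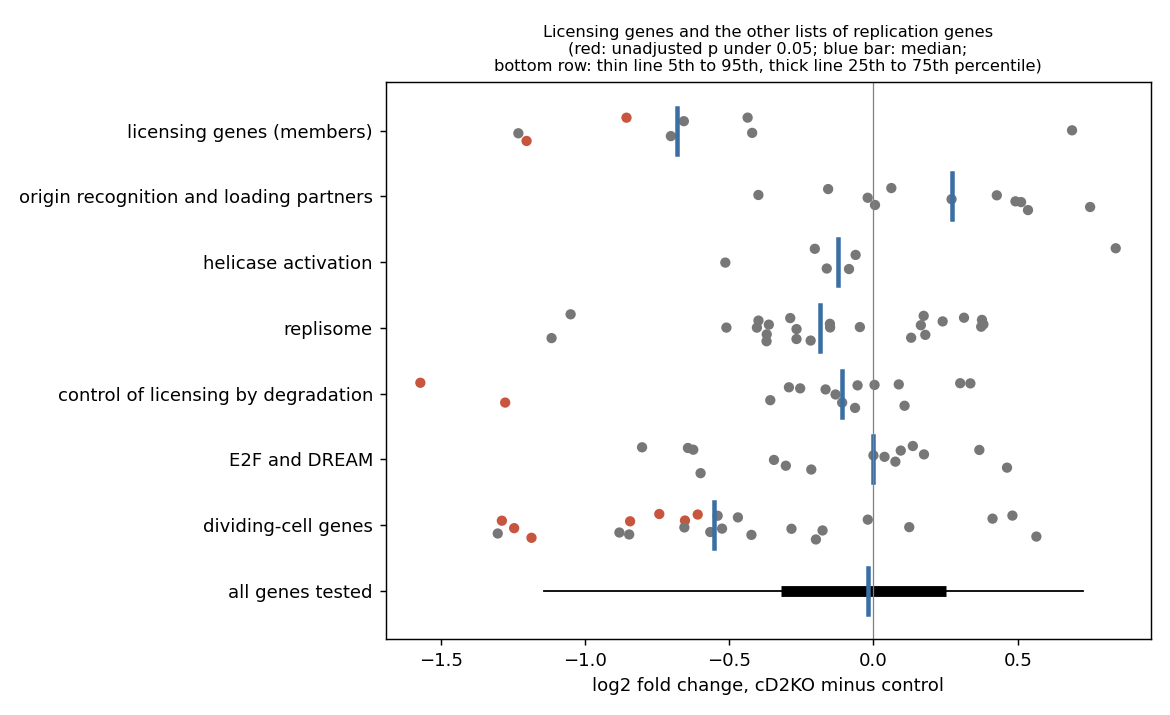
Log2 fold change (log2FC) of each tested gene (x axis, cD2KO minus control) for the licensing genes and the 6 lists of genes that act with them, with genes at an unadjusted p under 0.05 in red and the median of each list as a blue bar. The bottom row gives the 5th to 95th and 25th to 75th percentiles of all genes tested. The members and the dividing-cell genes have medians of -0.68 and -0.55, while those of the other lists lie between -0.18 and 0.27.

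Over these 6 lists together 9 of the 95 tested genes were lower and 0 higher, beside 6.62% and 5.34% of all genes, and none of them was under 0.1 after adjustment in edgeR. Leaving out single mice gave 2 lower genes without c129, 4 without c130, 4 without fl125 and 3 without fl128. Myod1, the myogenic factor that rises on activation, was at 27.0 ± 5.20 CPM in control and 25.8 ± 6.74 CPM in cD2KO mice (SD over 3 mice each), a log2FC of -0.07 with a 95% interval from -0.71 to 0.57.

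Of 12 muscle stem cell markers, all of which were detected in every mouse, 3 were higher and 1 was lower in cD2KO (5.34% and 6.62% of all genes), and their summed level was 1780 to 2270 CPM in the control and 2000 to 3140 CPM in the cD2KO mice. Of 7 tested markers of activated or differentiating muscle cells 0 were called (12% of all genes), with sums of 891 to 2140 and 1680 to 2950 CPM. These and the following sums are over all listed markers, tested or not. Markers of several other cell types also moved with the groups. All 11 tested immune markers were lower on average in cD2KO, 4 of them called (6.62% of all genes were lower), and their summed level was 3890 to 7150 CPM in the control mice and 207, 2200 and 2660 CPM in fl125, fl126 and fl128. Cd3e and Cd79a, markers of T and B cells, were at 0 in at least 1 mouse. Of 9 tested endothelial markers 6 were lower (6.62% of all genes), while 2 had a log2FC above 0. Their sums were 255 to 363 CPM in control and 203 to 252 CPM in cD2KO mice. Tie1 and Cldn5 were at 0 in at least 1 mouse. Of 9 mural markers 6 were higher (5.34% of all genes), while 2 had a log2FC below 0. Their sums were 5940 to 9950 CPM in control and 12000 to 18200 CPM in cD2KO mice. The 6 tested fibroadipogenic markers were all below 0 in log2FC, with a median of -0.77, but only Lum was called (6.62% of all genes were lower). Their sums were 2950 to 5010 CPM in control and 1730 to 4260 CPM in cD2KO mice, with Pi16 at 0 in at least 1 mouse. Of 5 Schwann cell markers 1 was lower and 0 were higher (6.62% and 5.34% of all genes), with a median log2FC of 0.26. Their sums were 4330 to 6730 CPM in control and 6020 to 6910 CPM in cD2KO mice. In each mouse the Schwann cell sum was above the sum of the 12 muscle stem cell markers. Sums over different genes, not scaled to length, do not show which cell type was more frequent. The immune sum was lowest in fl125, and of the 10 licensing genes 2 were lowest in fl125 and 6 in fl128. In RNA of sorted cells, fewer cells of a type and less RNA per cell cannot be told apart, and the part of these markers in the levels of the licensing genes was not tested.

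The 5 genes outside all lists whose log2 CPM followed the mean log2 CPM of Mcm2 to Mcm7 most closely over the 6 mice were Rbm34, Eed, P2ry1, Slc39a9 and Klf11. Pearson's r was 0.994, 0.989, 0.989, 0.985 and 0.983, the highest among 11471 genes, of which 135 had an r over 0.9. The points share their libraries and depth with those of the MCM genes, and the values are given as a description only.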

How the data were processed

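RNA of sorted qMuSCs from 3 control and 3 cD2KO mice was analysed. The values are the raw counts per gene that the authors deposited, not normalized, from reads they had aligned to mm10 with STAR. The submitters' processing notes name STAR 2.6.0a, HTSeq 0.9.1 and bcl2fastq, while annotation, strand setting and treatment of PCR duplicates are not given in the sources used here. Groups were taken from the genotype in the labels. Symbols, positions and exon lengths came from GENCODE M21, which held 31011 of 31053 identifiers.

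The expression minimum of the study, a DESeq2-normalized mean over 10, left 11633 genes. edgeR 4.0.16 (R 4.3.3) was run on the counts with TMM scaling and its quasi-likelihood test (robust, all 6 mice, no covariate), with Benjamini-Hochberg adjustment over all genes. A call is an unadjusted p under 0.05. Standard errors and intervals come from that fit, log2 CPM used a prior count of 2, and counting intervals are exact Poisson intervals at 95%. The members and lists were chosen with earlier results of these data known. Named genes are all members, from each list up to 5 called genes a direction by smallest p, or the 2 with the highest level where none passed, the 5 most alike in pattern, and Pax7, Myod1, Mki67 and Dio2 as checks of the labels. The other marker genes were named after their values were seen. Cul4a, Ddb1, Rbx1, Cdc45, Cdc7 and Gins1 were chosen after their values were seen, as was the search for E2F words. In simulated data, where 100 genes were changed by a log2 value of 1, the test called 77% of these and 4.76% of 11294 unchanged genes, among 11489 genes in the fit. At an adjusted p under 0.05, 23% of the changed genes passed in edgeR. The simulation gave all genes the same dispersion, so these shares may not hold for members that vary more, such as Mcm2 and Gmnn. Alternatives were DESeq2 1.42.0, limma 3.58.1 voom, other scalings, minimums and thresholds, non-robust estimation, thinned counts and leaving out each mouse.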

Additional observations from a re-analysis of the deposited data

How the results depend on the processing

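No paired analysis was possible because the labels give the mice no number shared between groups. The number of lower members was 2, and 1 with the DESeq2 test, with DESeq2 size factors, with upper quartile scaling and with non-robust estimation, where Mcm5 was the gene that no longer passed. It was 0 at an adjusted p under 0.05 or under 0.1, and between 0 and 2 with single mice left out, while the number of higher members was 0 to 1 (Mcm2, without fl128). Lower pathway genes numbered 9, with 2 at a minimum mean of 50, 0 at an adjusted p under 0.05 or 0.1, and 2 to 7 with mice left out, and higher ones 1 without a minimum and 0 to 1 with mice left out. Over all genes, 770 were lower, with 505 at a minimum mean of 50, 0 and 57 at an adjusted p under 0.05 and 0.1, and 399 to 874 with mice left out. Higher genes numbered 621, with 939 without a minimum, 1 and 33 at the adjusted thresholds, and 402 to 933 with mice left out. A minimum of 50 tests fewer genes, and the cause of the other shifts was not tested. The fitted change of Mcm3 ran from -0.75 to 0.11 with mice left out and was above 0 without control mouse c130. The median of the origin partners turned to -0.05 at a minimum mean of 50, and that of helicase activation to 0.06 with limma voom and ran from -0.29 to 0.09, without c130, with mice left out. Of 105 refits of single members, 91 kept direction and side of the threshold, 10 lost and 3 gained the call and 1 reversed. At these depths genes near 1 CPM, such as Mcm10 and Cdc6, cannot be compared.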
